A study of Mus musculus with 35 samples.

Results

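Oocyte transcription factors were followed here in RNA-seq of mouse zygotes and early 2-cell (2C) embryos after injection of Kdm5b-yfp mRNA or of water. The 8 genes were chosen by name, as rows of the deposited gene count table, from 24480 genes: Nobox, Figla, Lhx8, Sohlh1, Taf4b, Tbpl2, Hsf1 and Hsf5. No threshold on a measured value defined them, but earlier results from the same counts were known when they were chosen. Their levels and tests below are therefore a description, in which the adjusted p-values place each gene among all genes of the table and give no independent support.

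All samples came from wild-type C57BL/6NRj mice after superovulation of the females. The 4 groups were 10 zygotes injected with water (Ctrl water zygote), 10 zygotes injected with in vitro transcribed Kdm5b-yfp mRNA (Kdm5b zygote), 9 water-injected 2C samples (Ctrl water 2C) and 6 Kdm5b-yfp mRNA-injected 2C samples (Kdm5b 2C). Zygotes were single embryos collected 17 h after ovulation, and 2C samples were collected 5.5 to 8 h after division. Of the control 2C samples, 6 were single intact embryos, while 1 was a pool of 2 blastomeres and 2 were pools of 3 blastomeres, each blastomere from a different embryo. The Kdm5b 2C samples were 5 single intact embryos and 1 pool of 3 such blastomeres. Kdm5b encodes a demethylase of histone H3 lysine 4, and the injected mRNA carries a yellow fluorescent protein tag. The controls received water and no control mRNA, so an effect of KDM5B and an effect of injecting any mRNA cannot be told apart. The 2C embryos alone had been frozen and thawed, as zygotes, and their libraries were prepared separately, so stage, freezing and library day cannot be told apart.

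In the growing oocyte, these factors switch on the genes that the egg later relies on. NOBOX and LHX8 are homeodomain proteins, FIGLA and SOHLH1 are basic helix-loop-helix proteins that bind E-boxes, and together they drive genes of the zona pellucida and of the maternal mRNA store. TBPL2 replaces the TATA-binding protein TBP in oocytes, and TAF4B is a gonad-enriched subunit of TFIID, the complex that carries TBP to promoters. HSF1 is the main activator of heat shock genes and a maternal factor of early development, and HSF5 is a relative of it best known from male germ cells. Transcription is silent in the full-grown oocyte, so that the mRNAs in a zygote are largely inherited from the oocyte, and many of them are degraded by the 2C stage.

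The 250 bases upstream of the start of the gene as counted were available for 6 of the 8 genes in RefSeq promoter windows of GRCm38.p6. They are shown for Nobox, Figla and Lhx8, which were lower at the 2C stage after both injections, and for Hsf5, which was lower at the 2C stage in Kdm5b embryos. Capitals mark matches to an E-box (CANNTG, with N for any base). The sequences lie at chr6:43309555-43309804 on the minus strand for Nobox, at chr6:86016941-86017190 on the plus strand for Figla, at chr3:154330561-154330810 on the minus strand for Lhx8 and at chr11:87616914-87617163 on the plus strand for Hsf5, and each ends 1 base before the first base of the gene as counted. The longest RefSeq spans of Nobox (to base 43310072), Figla (from base 86016494) and Hsf5 (from base 87616399) reach past these windows, which therefore lie inside a longer form of those 3 genes. Of the others, Sohlh1 lies at chr2:25842995-25847248 and Tbpl2 at chr2:24071366-24096595, both on the minus strand, and Hsf1 at chr15:76477445-76500972 on the plus strand. No exon of the 8 genes overlaps an exon of another counted gene on either strand.
Nobox: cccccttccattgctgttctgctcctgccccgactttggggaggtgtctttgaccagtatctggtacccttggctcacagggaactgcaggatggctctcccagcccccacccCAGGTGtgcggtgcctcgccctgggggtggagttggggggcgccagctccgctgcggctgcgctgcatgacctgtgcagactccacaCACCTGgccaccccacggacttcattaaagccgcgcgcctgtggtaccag
Figla: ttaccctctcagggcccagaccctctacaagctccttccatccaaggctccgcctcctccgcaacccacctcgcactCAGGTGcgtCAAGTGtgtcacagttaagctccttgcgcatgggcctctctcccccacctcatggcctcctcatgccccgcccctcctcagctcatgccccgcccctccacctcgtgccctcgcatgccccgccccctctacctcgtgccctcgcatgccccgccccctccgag
Lhx8: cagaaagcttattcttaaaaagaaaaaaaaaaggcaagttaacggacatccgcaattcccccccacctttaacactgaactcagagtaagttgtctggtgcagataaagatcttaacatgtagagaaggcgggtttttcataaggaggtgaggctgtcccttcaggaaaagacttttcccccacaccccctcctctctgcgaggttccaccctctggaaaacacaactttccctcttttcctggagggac
Hsf5: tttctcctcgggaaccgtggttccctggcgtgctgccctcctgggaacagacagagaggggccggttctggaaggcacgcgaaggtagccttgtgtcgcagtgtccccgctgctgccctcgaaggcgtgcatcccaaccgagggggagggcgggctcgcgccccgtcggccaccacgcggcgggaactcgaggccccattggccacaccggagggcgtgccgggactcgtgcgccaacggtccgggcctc

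Each of these windows was searched on both strands for the E-box, for the NOBOX element TAATTG, for the TATA box TATAAA and for a heat shock element written GAANNTTC. None of these motifs overlapped in the windows of the 6 genes. Nobox held 2 E-boxes, from 137 to 132 and from 50 to 45 bases before the start, and Figla held 2, from 173 to 168 and from 164 to 159 bases before it. Tbpl2 held 4 E-boxes and Sohlh1 held 5, of which 3 read CACGTG. Lhx8 and Hsf5 held 0. The other 3 motifs had 0 matches in all 6 windows. Of all 32851 RefSeq windows of the same length, 66.2% held an E-box, 7.17% the NOBOX element, 12.4% the TATA box and 6.69% GAANNTTC. The 4 of 6 genes with an E-box are thus close to the share among all genes. Bases G and C made up 70.8% of the Hsf5 window, 67.2% for Figla, 65.2% for Nobox and 46.0% for Lhx8, against a median of 52.4% over all windows.

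Fragments counted on genes added up to between 8705584 and 17797581 per sample. Kdm5b took at most 0.0189% of them in the controls, 2.30% to 10.4% in Kdm5b zygotes and 8.27% to 15.8% in Kdm5b 2C samples, and its row was removed before normalization. The injected embryos carried the markers of their stage, with Zscan4c, Zscan4d and Zfp352 summing to 2.27 to 27.2 TPM over all zygotes, 93.9 to 414 TPM in control 2C samples and 120 to 359 TPM in Kdm5b 2C samples. All 9 oocyte markers were detected, summing to 6077 to 16717 TPM over all samples. The sums of 12 cumulus cell markers stayed between 12.8 and 51.0 TPM, with Amh and Inha at 0 in all 2C samples. Among these markers Cyp19a1, the gene of aromatase, was at 9.00 to 40.3 TPM over all samples, with medians of 27.0, 30.6, 18.7 and 13.0 TPM in Ctrl water zygote, Kdm5b zygote, Ctrl water 2C and Kdm5b 2C. The sums of 4 sperm markers lay between 0 and 68.1 TPM. Control 2C replicates 2 and 3 stood apart, with 11841 and 12155 genes detected against 13855 to 15301 in the other 2C samples. Results of the main fits that rest on them are given with and without them. The other alternative fits were not repeated without both. Levels are in TPM, a gene's count per base of exon, rescaled so that every sample has an equal sum. Without a spike-in these are relative levels, and in samples of several blastomeres fewer cells with a transcript and less of it per cell cannot be told apart.

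Nobox was the most abundant of the 8 in control zygotes and Sohlh1 was close to absent. Nobox ranked 352 among 15332 genes with a median above 0, at 372 to 505 TPM with a median of 445 TPM (447 ± 41.1, SD, n = 10). Lhx8, at a median of 151 TPM (134 to 172 TPM), and Hsf1, also at 151 TPM (128 to 180 TPM), followed and overlapped almost fully. Hsf5 came next at 39.1 TPM (30.1 to 49.7 TPM), then Figla at 24.5 TPM (9.41 to 36.9 TPM), Taf4b at 19.9 TPM (13.1 to 23.9 TPM) and Tbpl2 at 16.1 TPM (10.3 to 18.3 TPM). Each of these last 4 overlapped its neighbour in this order. With Sohlh1 (0 to 1.27 TPM) set aside, only the steps from Nobox to the next 2 and from Lhx8 and Hsf1 to the rest were larger than the spread between zygotes. Together the 8 genes gave a median of 852 TPM in control zygotes, of which Nobox made up 52.6%. In control 2C samples the sum ranged from 540 to 696 TPM with a median Nobox share of 29.4%, and in Kdm5b 2C samples from 525 to 626 TPM with a share of 17.9%. By then Hsf1 had the highest median, at 225 TPM in control and 282 TPM in Kdm5b 2C samples.

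**Figure D1:**
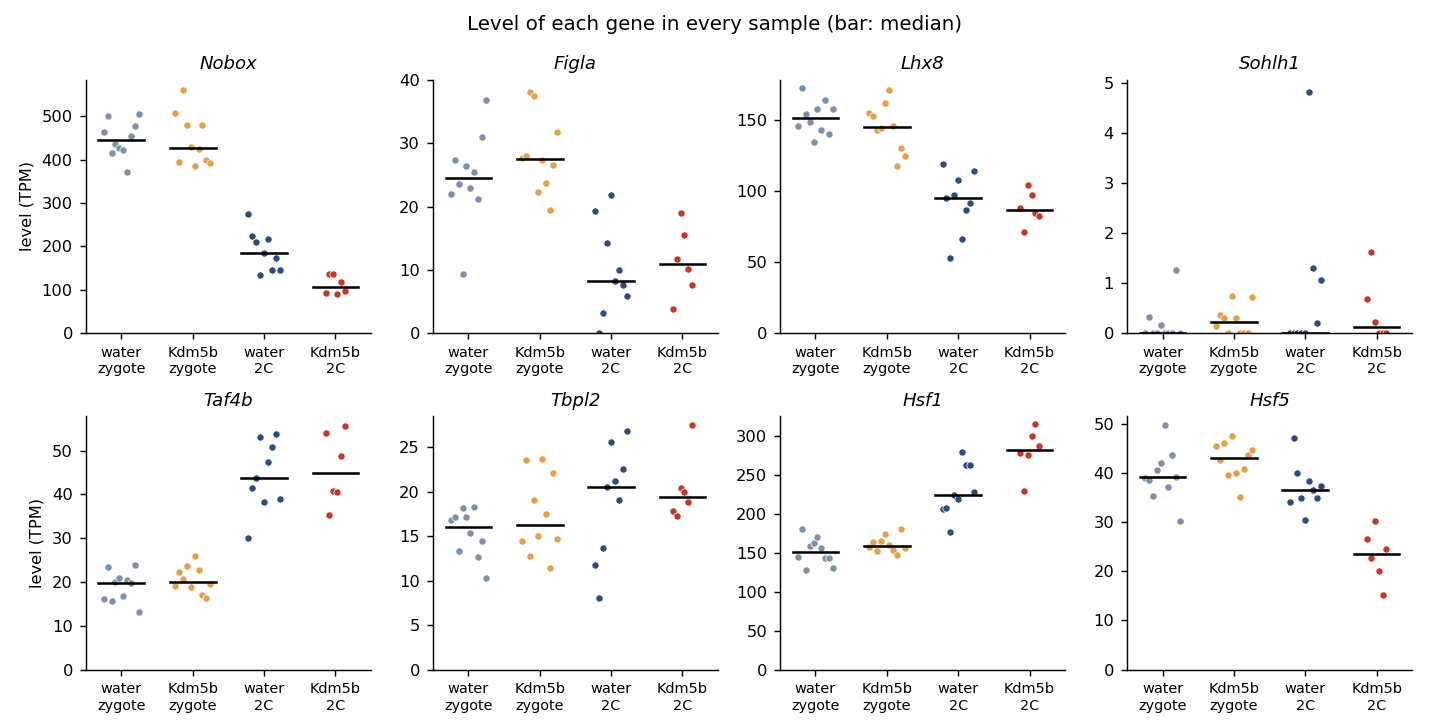
Level in TPM (y axis, linear, own scale per gene) of the 8 genes in each of the 35 samples by group (x axis); points are samples and bars are medians. Nobox, Figla and Lhx8 have lower medians in both 2C groups than in zygotes, Taf4b and Hsf1 have higher ones, and Hsf5 is lower in Kdm5b 2C samples (15.2 to 30.2 TPM) than in every control 2C sample (30.4 to 47.0 TPM).

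The first question was how these transcripts changed between the late zygote and the early 2C embryo in the water controls. Nobox, Figla and Lhx8 fell, Taf4b and Hsf1 rose, and Tbpl2 and Hsf5 did not pass the test. Differences are log2 fold changes from edgeR (quasi-likelihood test), with p adjusted by Benjamini-Hochberg over all 11968 genes tested, and were called at an adjusted p under 0.05, or at both thresholds where the log2 fold change also exceeded 1 in size. Of the 8 genes, 7 passed the filter on low counts, and 2 of them rose and 3 fell at the adjusted p, where 26.8% of all genes tested rose and 25.4% fell. At both thresholds 1 rose and 2 fell, beside 9.20% and 13.0% of all genes. The ranges of the groups did not overlap for 3 of the 7, and for 17.8% of all genes. The median log2 fold change of the 7 was -0.00, and that of all genes 0.02.

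Among the oocyte-specific activators, Nobox went from 445 TPM in control zygotes to a median of 184 TPM in control 2C samples, with a lowest of 135 TPM and a highest of 275 TPM. All 9 of the 2C samples lay below the lowest zygote. The log2 fold change was -1.16 (SE 0.11, adjusted p = 2.71e-09), a 2.23-fold decrease. Lhx8 fell less, from 151 TPM to 95.3 TPM with a range of 52.6 to 119 TPM, and its 9 samples also lay below every zygote (log2 fold change -0.63, SE 0.12, adjusted p = 0.000114).

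Figla, the activator of the zona pellucida genes, fell from a median of 24.5 TPM to 8.21 TPM. Among the control 2C samples it varied more, relative to its mean, than any other tested member, from 0 to 21.9 TPM. Its mean there was 10.0 TPM and its SD 7.21 TPM (71.9% of the mean), against 24.6 and 7.13 TPM in control zygotes. Replicate 2 held 0 Figla fragments, which allows up to 0.966 TPM there (the level of 3 counts, for counting error only), and replicate 3 held 9. Of the 9 samples, 5 lay below the lowest zygote, at 9.41 TPM. The log2 fold change was -1.22 (SE 0.45, adjusted p = 0.0262). With replicates 2 and 3 left out it was -0.92 (SE 0.30, adjusted p = 0.0107), inside the threshold on the fold change, and with single intact embryos only it was -1.10 (SE 0.55, adjusted p = 0.108), which no longer passed.

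Sohlh1, which acts at the start of oocyte growth, gave 69 fragments over all 35 samples. It was at 0 in 19 samples and reached 10 counts in 1 of them, control 2C replicate 6, with 19 counts and 4.83 TPM. In all others it stayed at or under 1.62 TPM, in a table where 3 counts of Sohlh1 corresponded to 0.389 to 0.821 TPM, so no fold change is given. Its partner Sohlh2 was detected in every sample, with a median of 9.52 TPM in control zygotes and 10.2 TPM in control 2C samples (log2 fold change 0.17, adjusted p = 0.569).

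Of the TFIID-linked factors, Taf4b went the other way. It was at 13.1 to 23.9 TPM in control zygotes and at 30.1 to 53.8 TPM in control 2C samples, with medians of 19.9 and 43.7 TPM and no overlap. Its log2 fold change of 1.31 (SE 0.13, adjusted p = 5.45e-09) was a 2.48-fold increase. Taf4, the broadly expressed paralog, rose by less, from 156 to 206 TPM (log2 fold change 0.48, adjusted p = 2.83e-05), and the ratio of Taf4b to Taf4 within a sample went from a median of 0.122 to 0.215, with ranges of 0.0835 to 0.172 and 0.137 to 0.344 that overlapped. Taf4b therefore stayed the lesser of the pair in every sample.

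Tbpl2 moved from a median of 16.1 TPM to 20.5 TPM, and the 2C samples spread from 8.04 to 26.9 TPM. The 3 control 2C samples lowest in Tbpl2 were replicates 1, 2 and 3, at 11.8, 8.04 and 13.7 TPM, and the other 6 all lay above the highest zygote, at 18.3 TPM. Those 3 are also the controls whose index numbers fall into strip 11, a group of 8 inferred from the numbers. The labels name no batch. The log2 fold change of 0.38 (95% interval -0.06 to 0.83, adjusted p = 0.141) did not pass, and without replicates 2 and 3 it was 0.54 (SE 0.18, adjusted p = 0.0133). Tbp, the general factor, fell from 189 to 128 TPM (log2 fold change -0.59, adjusted p = 4.96e-05). The ratio of Tbpl2 to Tbp had a median of 0.0817 in control zygotes (0.0543 to 0.101) and 0.187 in control 2C samples (0.0540 to 0.247), so that TBP transcripts outnumbered those of its oocyte relative in every sample.

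**Figure D2:**
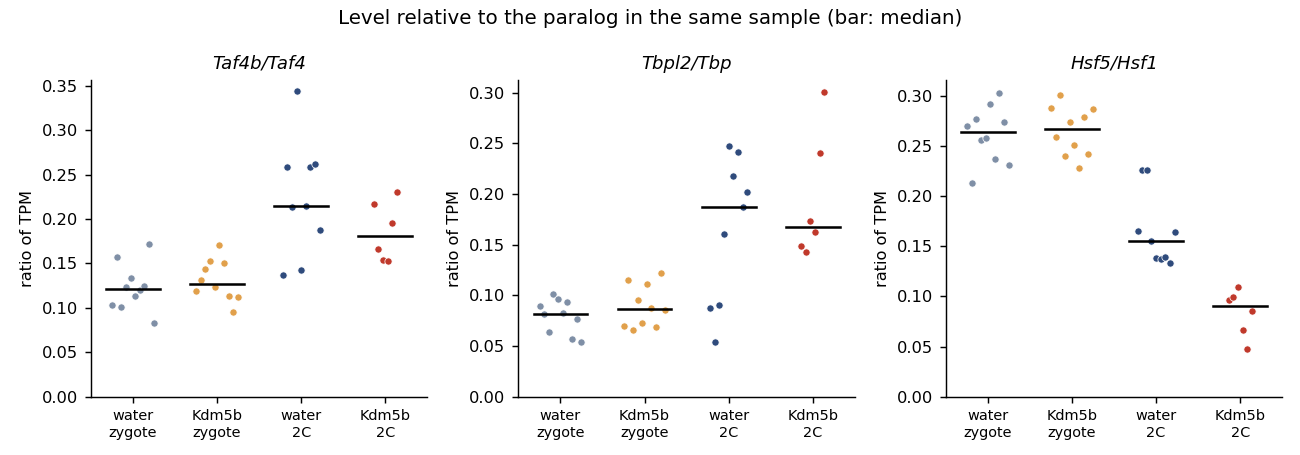
Ratio of TPM (y axis, starting at 0) of Taf4b to Taf4, Tbpl2 to Tbp and Hsf5 to Hsf1 in each sample by group (x axis); points are samples and bars are medians. The Hsf5 to Hsf1 ratio is 0.0481 to 0.110 in Kdm5b 2C samples, below the 0.133 to 0.226 of the control 2C samples.

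The heat shock factors diverged in the controls. Hsf1 went from 128 to 180 TPM in control zygotes, with a median of 151 TPM, to 177 to 280 TPM in control 2C samples, with a median of 225 TPM. All but 1 of these 2C samples exceeded the highest zygote (log2 fold change 0.69, SE 0.09, adjusted p = 8.26e-07). Hsf5 had a median of 39.1 TPM in control zygotes and of 36.6 TPM in control 2C samples, with ranges that overlapped almost fully (30.1 to 49.7 and 30.4 to 47.0 TPM). Its log2 fold change was -0.00 (95% interval -0.21 to 0.21, adjusted p = 0.982), which leaves room for a change of at most about 0.21 in either direction. The ratio of Hsf5 to Hsf1 had a median of 0.264 in control zygotes and 0.155 in control 2C samples. Hsf2 stayed minor, with a median ratio of Hsf1 to Hsf2 of 33.5 in control zygotes and 31.8 in control 2C samples.

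The same step in Kdm5b-yfp mRNA-injected embryos shares no samples with the controls. There Nobox, Figla, Lhx8 and Hsf5 fell and Taf4b and Hsf1 rose, so 4 of the 7 tested members fell and 2 rose at the adjusted p, beside 29.5% and 29.3% of the 12390 genes tested. At both thresholds 2 fell and 1 rose, beside 16.0% and 10.5% of all genes, and ranges did not overlap for 6 of the 7 and for 28.8% of all genes. Nobox went from 427 TPM (386 to 560.5 TPM) in Kdm5b zygotes to 107 TPM (89.7 to 135 TPM) in Kdm5b 2C samples, a 3.73-fold decrease (log2 fold change -1.90, SE 0.11, adjusted p = 1.69e-12). It ranked 68 by p among all genes, where it had ranked 356 in the controls.

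Hsf5 also fell in Kdm5b embryos, from 43.1 TPM (35.1 to 47.5 TPM) to 23.6 TPM (15.2 to 30.2 TPM). All 6 of the 2C samples lay below every Kdm5b zygote (log2 fold change -0.77, SE 0.13, adjusted p = 1.11e-05). The other members had log2 fold changes near those of the controls, with Figla at -1.22 (SE 0.29, adjusted p = 0.000953), Lhx8 at -0.62 (SE 0.10, adjusted p = 1.31e-05), Taf4b at 1.26 (SE 0.12, adjusted p = 3.37e-09), Hsf1 at 0.91 (SE 0.08, adjusted p = 1.03e-09) and Tbpl2 at 0.33 (95% interval -0.08 to 0.74, adjusted p = 0.159).

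Whether the step from zygote to 2C differed between the injections was tested as an interaction over all 35 samples. In that fit each gene had a single spread for all groups, zygotes included. In control zygotes, Kdm5b zygotes, control 2C and Kdm5b 2C samples, the SD of Nobox was 9.20%, 13.2%, 24.3% and 18.8% of its mean. That of Hsf5 was 13.1%, 8.74%, 12.5% and 22.5%. The log2 fold change of Kdm5b against water in zygotes was 0.003 for Nobox and 0.12 for Hsf5. For them the interaction therefore largely repeated the difference between 2C groups given below. Nobox and Hsf5 were 2 of 15 genes called among 13778, or 0.109% of them, both with a more negative log2 fold change in Kdm5b embryos. Nobox fell further there than in water-injected embryos, while Hsf5 fell in Kdm5b embryos and did not pass the test in the controls. The difference of the log2 fold changes was -0.73 for Nobox (SE 0.16, adjusted p = 0.0328) and -0.75 for Hsf5 (SE 0.16, adjusted p = 0.0328), and they ranked 13 and 10 by p. For the other 5 tested members it lay between -0.04 and 0.24, with adjusted p from 0.572 for Hsf1 upwards. The 95% interval was -0.01 to 0.48 for Hsf1, -0.30 to 0.36 for Lhx8 and -0.40 to 0.32 for Taf4b, and was wider for Tbpl2 (-0.63 to 0.56) and Figla (-1.07 to 1.12).

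Both interaction calls depended on single samples. With control 2C replicates 2 and 3 left out the differences were -0.67 for Nobox and -0.68 for Hsf5 (adjusted p = 0.0844 for each), and no member was called. Leaving out 1 2C sample at a time gave -0.80 to -0.66 for Nobox, with adjusted p from 0.00938 to 0.104, and -0.84 to -0.65 for Hsf5, with adjusted p from 0.0116 to 0.104. Both calls were lost without control replicate 2 (adjusted p = 0.0554 for each), without control replicate 3 (0.053 for each), without Kdm5b replicate 4 (0.104 for each) and without Kdm5b replicate 5 (0.0688 for Nobox and 0.0951 for Hsf5). That of Nobox was also lost without Kdm5b replicate 1 (0.0782) or 6 (0.0641). With single intact 2C embryos only, both held (Nobox -0.83, adjusted p = 0.0202, and Hsf5 -0.80, adjusted p = 0.0343). That fit called 4 genes higher and 32 lower of 13844. Both also held with the index strip as a covariate (Nobox -0.87, adjusted p = 0.000868, and Hsf5 -0.93, adjusted p = 0.00143). The strip fit called many more genes in all, 65 higher and 277 lower of 13778, where the main fit called 1 and 14. It was not run without control replicates 2 and 3.

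**Figure D3:**
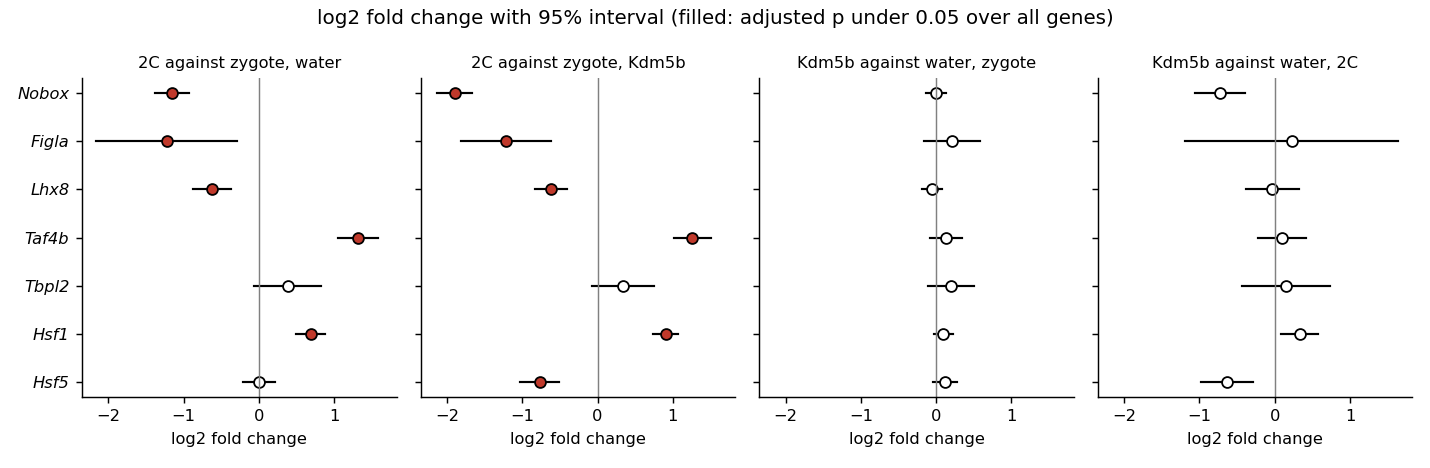
log2 fold change (x axis) of the 7 tested genes (y axis) in each of 4 comparisons; points are edgeR estimates, lines are 95% intervals, and filled points have an adjusted p under 0.05 over all genes. Intervals of Nobox are -1.38 to -0.93 in water and -2.13 to -1.67 in Kdm5b embryos, and no point is filled in either comparison of Kdm5b with water.

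The effect of Kdm5b-yfp mRNA was then compared with water within each stage. In zygotes, none of the 7 tested members passed the adjusted p in edgeR, none had an unadjusted p under 0.05 and none was called by DESeq2, where edgeR called 0.134% of the 11933 genes tested and 10.3% had an unadjusted p under 0.05. Ranges were apart for 0 of the 7 and for 0.0251% of all genes. The log2 fold changes lay between -0.06 for Lhx8 and 0.21 for Figla, with adjusted p from 0.639 upwards. The interval was narrow for Nobox, from -0.13 to 0.13, and for Hsf5, from -0.04 to 0.27, while that of Figla ran from -0.16 to 0.58.

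In 2C samples, 0 of the 7 passed the adjusted p in edgeR, beside 3 genes, 0.0245%, called of the 12244 tested. An unadjusted p under 0.05 was found for 3 of the 7 and for 9.41% of all genes. Nobox was at 89.7 to 135 TPM in Kdm5b 2C samples and at 135 to 275 TPM in the controls. All 6 Kdm5b samples lay below the mean of the controls and 4 lay below the lowest control, so that the groups only just overlapped. The log2 fold change was -0.73 (SE 0.16, 95% interval -1.05 to -0.40, unadjusted p = 0.000146, adjusted p = 0.108), and Nobox ranked 15 by p. Hsf5 was lower in all 6 Kdm5b 2C samples, at 15.2 to 30.2 TPM with a median of 23.6 TPM, than in every control, at 30.4 to 47.0 TPM with a median of 36.6 TPM. It was the only 1 of the 7 whose groups did not overlap, as for 0.253% of all genes. Its log2 fold change was -0.63 (SE 0.16, 95% interval -0.97 to -0.29, unadjusted p = 0.000842, adjusted p = 0.234) and it ranked 43.

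Hsf1 was higher in Kdm5b 2C samples, at 230 to 316 TPM with a median of 282 TPM, than the 225 TPM median of the controls, at 177 to 280 TPM, but did not pass (log2 fold change 0.33, 95% interval 0.08 to 0.58, unadjusted p = 0.0123, adjusted p = 0.373). The ratio of Hsf5 to Hsf1 was 0.0481 to 0.110 in Kdm5b 2C samples and 0.133 to 0.226 in controls, with no overlap. Lhx8, Taf4b and Tbpl2 had medians of 86.3, 44.8 and 19.4 TPM in Kdm5b 2C samples beside 95.3, 43.7 and 20.5 TPM in controls, with intervals of the log2 fold change of -0.38 to 0.32, -0.23 to 0.42 and -0.43 to 0.74. Figla, at 10.9 TPM beside 8.21 TPM, had an interval of -1.19 to 1.64, and a difference within it was not detectable at this depth and spread.

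The call in 2C samples depended on how the fit was set up. At the adjusted p alone, DESeq2's Wald test called Nobox (adjusted p = 0.0021) and Hsf5 (0.00928). So did a single edgeR fit of all 35 samples (0.000296 and 0.00189), in which each gene's spread was shared with the zygotes. These log2 fold changes, between -0.73 and -0.64, were inside the threshold on the fold change. Over all genes at both thresholds, which these members did not pass, the Wald test called 1 higher and 6 lower of 5319. The single fit called 15 and 55 of 13778, and the main fit 0 and 1 of 12244. The 2C libraries carried index numbers that fall into 2 strips of 8 as inferred from the numbers, with 3 control and 5 Kdm5b samples in strip 11 and 6 control samples and 1 Kdm5b sample in strip 12. With the strip as a covariate the log2 fold change was -0.86 for Nobox (adjusted p = 0.00794), -0.80 for Hsf5 (0.0246) and 0.49 for Hsf1 (0.0397). At both thresholds, which these members did not pass, that fit called 6 genes higher and 47 lower of 12244. For the Wald test, the single fit and the strip covariate, all genes were not counted at the adjusted p alone. No share of all genes therefore stands beside those member calls. Hsf1 was also past the adjusted p in the single fit of all 35 samples (0.32, adjusted p = 0.0393). Within strip 11, Nobox was at 210 to 275 TPM in the 3 controls and at 89.7 to 135 TPM in the 5 Kdm5b samples (log2 fold change -1.04, adjusted p = 0.032), and Hsf5 was at 34.2 to 47.0 TPM and at 20.1 to 30.2 TPM (adjusted p = 0.233). Over all genes the strip 11 fit called 4 higher and 66 lower of 12426 at both thresholds. In strip 12 the single Kdm5b sample, at 117 TPM of Nobox and 15.2 TPM of Hsf5, lay below all 6 controls, at 135 to 216 TPM and 30.4 to 38.4 TPM. Of the 3 strip 11 controls, 2 were replicates 2 and 3, which had few genes detected. Leaving both out of the main fit gave -0.67 for Nobox (adjusted p = 0.302) and -0.57 for Hsf5 (0.45). The Wald test, the single fit and the fits by strip were not run without both, so their part in those differences was not tested.

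**Figure D4:**
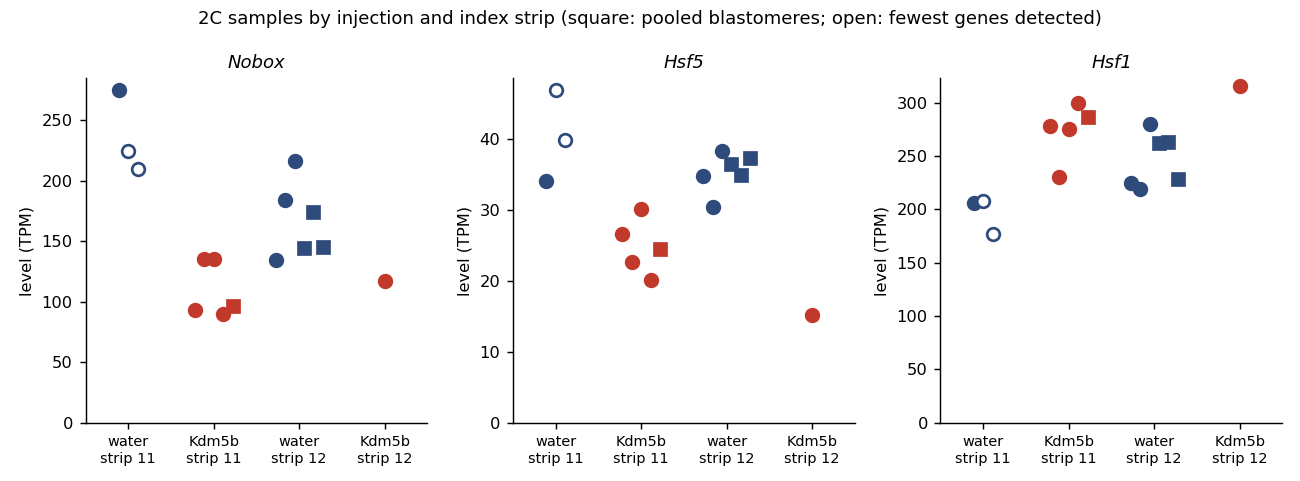
Level in TPM (y axis, starting at 0) of Nobox, Hsf5 and Hsf1 in each of the 15 2C samples by injection and index strip (x axis); squares are samples of pooled blastomeres and open circles are control replicates 2 and 3. Within each strip, every Kdm5b sample is lower than every control in Nobox and in Hsf5.

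The surrounding machinery was described with 4 lists, counted at the adjusted p. The 12 partners and paralogs of the factors comprise Sohlh2, the partner of SOHLH1, and E proteins that pair with FIGLA. The LHX8 cofactor Ldb1, other TBP and HSF proteins and TFIIA subunits complete the list. At the 2C stage of the controls, 6 of the 11 tested rose and 2 fell, with a median log2 fold change of 0.31, beside 26.8% and 25.4% of all genes and a median of 0.02. Tcf4, an E protein, rose from 0.826 to 3.18 TPM (log2 fold change 2.18, SE 0.40, adjusted p = 6.37e-05). Gtf2a1l, the germ cell form of a TFIIA subunit, fell from 31.1 to 7.83 TPM (log2 fold change -1.78, SE 0.30, adjusted p = 1.65e-05), while Gtf2a1, the general form and the most abundant of the list in control zygotes at 318 TPM, rose to 543 TPM (log2 fold change 0.80, adjusted p = 5.71e-09).

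Of the 15 TFIID subunits in the table, 14 were tested in the controls, of which 8 rose and 2 fell, with a median log2 fold change of 0.29, beside 26.8% and 25.4% of all genes and a median of 0.02. The 2 that fell were Taf7 and Taf8, and both passed the threshold on the fold change. Taf7 went from 328 to 136 TPM (log2 fold change -1.18, SE 0.15, adjusted p = 3.46e-07), and Taf8, named after its values were seen, had a log2 fold change of -1.03 (adjusted p = 9.34e-05). Taf3, the most abundant at 397 TPM, moved by 0.31 (adjusted p = 0.0178). No subunit of the list was past both thresholds upwards in the controls, so the 1.31 of Taf4b was above all 14.

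Of the 17 listed targets in the table, genes reported to depend on FIGLA, NOBOX, LHX8 or SOHLH1 in the ovary, 10 fell and 2 rose in the controls, and in Kdm5b embryos 9 fell and 4 rose. Of all genes 25.4% fell and 26.8% rose in the controls, and 29.5% fell and 29.3% rose in Kdm5b embryos. The median log2 fold change was -0.78 in controls and -0.68 in Kdm5b embryos. Padi6, a component of the cytoplasmic lattices, fell from 908 to 240 TPM (log2 fold change -1.81, SE 0.14, adjusted p = 8.97e-11). Npm2, a chromatin chaperone and the most abundant target at 2934 TPM in control zygotes, fell to 1501 TPM (log2 fold change -0.96, SE 0.12, adjusted p = 1.98e-07). The 2 that rose were Pou5f1, at 0.55 (adjusted p = 1.28e-07), and Oosp1, at 0.38 (adjusted p = 0.00898), both named after their values were seen. Kdm5b-yfp mRNA against water gave 0 calls among the 17 in zygotes and 0 in 2C samples in edgeR.

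Of the 12 heat shock genes, 6 fell and 1 rose in the controls, with a median log2 fold change of -0.43, beside 25.4% and 26.8% of all genes and a median of 0.02, while Hsf1 itself rose. Hsp90aa1, a cytosolic chaperone and the most abundant at 2540 TPM in control zygotes, fell to 467 TPM (log2 fold change -1.94, SE 0.19, adjusted p = 3.94e-09), and Hspa4 fell from 82.4 to 26.7 TPM (log2 fold change -1.47, SE 0.12, adjusted p = 4.8e-10). Bag3, a cochaperone, was the 1 that rose, from a median of 0.532 to 20.5 TPM (log2 fold change 4.70, SE 0.69, adjusted p = 2.71e-06). In Kdm5b embryos 8 fell and 1 rose, with a median of -0.97, beside 29.5% and 29.3% of all genes and a median of 0.01. None of the 4 lists had a call for Kdm5b-yfp mRNA against water in edgeR, in zygotes or in 2C samples. The lists were written with earlier results of these counts known, so that their counts are a description.

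**Figure D5:**
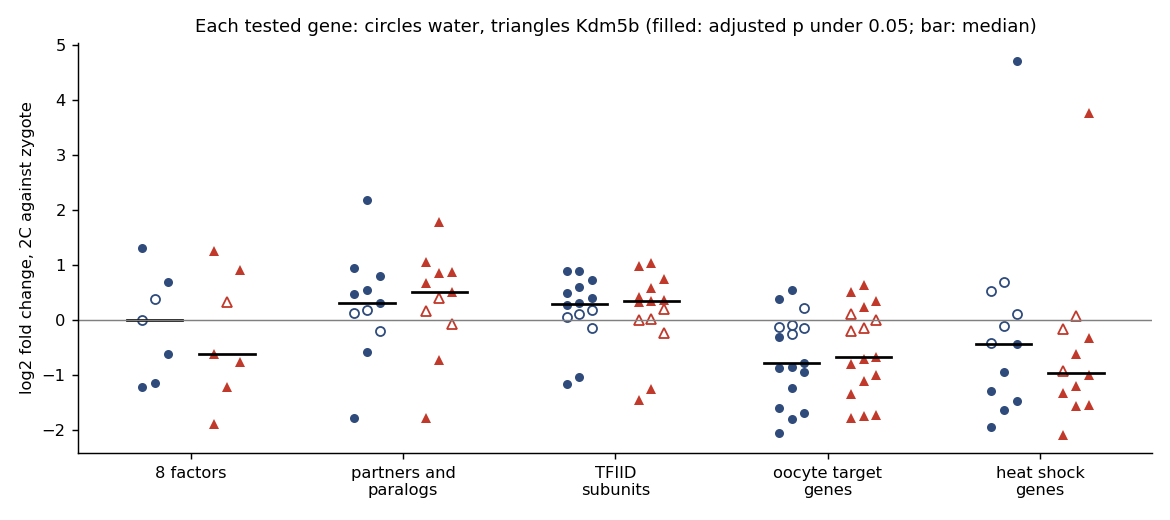
log2 fold change of 2C against zygote (y axis) for each tested gene of the 8 factors and of the 4 lists (x axis), as circles in water-injected and triangles in Kdm5b-yfp mRNA-injected embryos; filled symbols have an adjusted p under 0.05 and bars are medians. Medians in controls are -0.00, 0.31, 0.29, -0.78 and -0.43 from left to right.

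Genes whose pattern over the 35 samples was most like that of a member were ranked by the root mean square difference of their log2 CPM, each centred on its own mean, among 13777 genes. Because they were picked for likeness over these same samples, a shared group pattern follows from the choice and is no separate result. Nearest to Nobox were Cnbp, Glyr1 and Ddx21, at 0.20, 0.20 and 0.21 where the median gene stood at 1.06. Cnbp, a nucleic acid binding protein, had medians of 333, 314, 142 and 86.3 TPM in Ctrl water zygote, Kdm5b zygote, Ctrl water 2C and Kdm5b 2C, so that it too was lowest in Kdm5b 2C samples. Nearest to Hsf5 were Ddx5, Rgs17 and Abcf2, at 0.20 to 0.21 beside a median of 0.76. Ddx5, an RNA helicase, had medians of 277, 289, 277 and 179 TPM in the same order, and it had the smallest p of the 15 genes called in the interaction (log2 difference -0.73, SE 0.12, adjusted p = 0.00771).

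Lhx8 was nearest to Nfyc, Gm13103 and Foxo1 (0.22 each), and Taf4b to Psme4, Fam135a and Csnk1g3 (0.22 to 0.23), of which Psme4, a proteasome activator, went from 256 to 505 TPM between control zygotes and 2C samples. Hsf1 had the closest match of the 7, with Crk, Arih1 and Csnk2a1 at 0.12 to 0.13. Tbpl2 was nearest to Plekhm1, Coq10b and Fam222b (0.29 each), and Figla, the gene with the fewest counts of the 7, to Tex264, Pop7 and Smim20, at 0.55 to 0.56.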

How the data were processed

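The authors sequenced total RNA of 35 mouse samples with a stranded kit, trimmed reads with fastp 0.21.0, aligned them to GRCm38 with STAR 2.7.3a and counted fragments with featureCounts 1.5.1 on RefSeq genes, per the labels and the file headers. The file header and the study's methods name the RefSeq annotation differently. The deposited counts are whole fragments per gene, not normalized. A deposited table of estimated counts for repeats was not used here.

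Counts of 24480 genes were analysed after removal of the Kdm5b row. Groups and replicates came from the labels, and 0 columns belonged to no sample. TPM used the exon lengths of the deposited table. edgeR 4.0.16 in R 4.3.3 gave the tests, with filterByExpr (minimum count 10), TMM scaling and a quasi-likelihood test adjusted by Benjamini-Hochberg over all genes tested, each comparison fitted on its own 2 groups and the interaction on all 35 samples. Thresholds were an adjusted p of 0.05 and a log2 fold change of 1 in size. The standard error is the log2 fold change divided by the square root of F, and intervals are at 95%. The main design differs from the authors' DESeq2 1.30.1. The labels call the samples biological replicates and tie none to a mother, so p-values measure the spread between these samples. Depth was 8705584 to 17797581 fragments per sample, and limits given for a count of 0 are at 3 counts and cover counting error only.

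Named genes were the 8 members, in each list the gene with the smallest p upwards and downwards past both thresholds in the control stage comparison and the most abundant in control zygotes, and the 3 genes nearest to each member. Members and lists were chosen with earlier results of these data known. The names H1f8 and Taf4a were listed beside H1foo and Taf4, other names of the same genes, so the 17 targets and 15 TFIID subunits in the table are all that were listed. Promoters came from RefSeq windows (GRCm38.p6). Alternatives were DESeq2 size factors, DESeq2 1.42.0 Wald tests, other filters, the Kdm5b row kept, no fold change threshold, the index strip in the model, 1 fit of all samples, single intact 2C embryos, a block for the replicate number, and single samples left out. Strip 11 alone, the strip in the interaction, single 2C samples left out of the interaction, control 2C replicates 2 and 3 left out and the relation with the Kdm5b share were added after seeing the data. Python 3.11.15, numpy 2.4.6, pandas 2.3.3, scipy 1.17.1 and matplotlib 3.10.9 were used.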

Additional observations from a re-analysis of the deposited data

Results flagged for a closer look

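Among the 32 sets of samples (8 genes in 4 groups), 3 held a sample far from the others by Dixon's ratio. For normally distributed values chance alone marks about 1 set in 20. That rate does not hold for the flagged Sohlh1 sets, with 7 of 10 control zygotes and 5 of 9 control 2C samples at 0. Sohlh1 in control zygotes had a highest value of 1.27 TPM in replicate 9, from 7 counts, with the next at 0.323 TPM. Sohlh1 in control 2C samples had a highest value of 4.83 TPM in replicate 6, from 19 counts, with the next at 1.31 TPM. Tbpl2 in Kdm5b 2C samples had a highest value of 27.5 TPM in replicate 6, which held 3 blastomeres of 3 embryos, with the next at 20.4 TPM. The 3 pooled control 2C samples were at 19.1 to 26.9 TPM in Tbpl2, with a median of 22.6 TPM. The 6 single intact controls were at 8.04 to 25.6 TPM, with a median of 17.1 TPM. An effect of pooling was not tested.

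The step from zygote to 2C differed between the injections for Nobox and Hsf5 in the edgeR test of that difference, with a spread shared by all groups. It was -0.73 for Nobox (SE 0.16, adjusted p = 0.0328) and -0.75 for Hsf5 (SE 0.16, adjusted p = 0.0328). All 9 control and all 6 Kdm5b 2C samples were below every zygote of their injection in Nobox. For Hsf5 all 6 Kdm5b 2C samples were below every Kdm5b zygote and 0 of the 9 control 2C samples below the lowest control zygote. Over the alternatives that kept every sample or left out a set of samples, adjusted p ran from 0.000868 to 0.0844 for Nobox and from 0.00143 to 0.0844 for Hsf5. The lowest values came from the fit with the index strip, which called 65 genes higher and 277 lower of 13778.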

How the results depend on the processing

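Over 923 log2 fold changes of the 7 tested genes under the alternatives, 0 called values changed sign, and 59 uncalled ones did. Included is the setting without a fold change threshold, which repeats the main fit and cannot change sign. In the Kdm5b stage comparison, single intact embryos and leaving out Kdm5b 2C replicate 6 were the same fit. Without the fold change threshold, 5 members were called in the water stage comparison (3 in the main fit) and 6 in the Kdm5b one (3). In the water stage comparison leaving out each sample gave 3 calls each time. Strip 11 alone gave 1 call for Kdm5b against water in 2C samples (main 0), namely Nobox. The interaction gave 0 calls without control 2C replicates 2 and 3 together, and 0 to 2 when single 2C samples were left out (main 2). The replicate block moved Figla to -1.44 (adjusted p = 0.0588) in the water stage comparison and changed no other call, and same-numbered samples did not deviate together (0 pairs over 0.1), so the numbers do not pair them. Tbpl2 passed in the water stage comparison without control 2C replicate 2 (0.48, adjusted p = 0.0327), and keeping the Kdm5b row moved no median TPM by more than 1 SD. Over all genes at both thresholds, 1 lower gene for Kdm5b against water in 2C samples became 15 higher and 55 lower in the single fit, 6 and 47 with the strip and 4 and 66 in strip 11. The interaction, counted at the adjusted p alone, went from 1 higher and 14 lower to 65 and 277 with the strip, 4 and 32 in single embryos and 0 and 7 without replicates 2 and 3. The water stage comparison went from 1101 higher and 1555 lower to 1813 and 1665 with DESeq2's Wald test and 1902 and 2294 with no filter, where more genes were tested. With the Wald test the median log2 fold change over its larger set of genes was 0.12 in water and 0.15 in Kdm5b embryos, beside 0.02 and 0.01. The causes were not tested. At few counts, as in Figla and Sohlh1, depth limits what could be seen.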

Other observations

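The share of Kdm5b counts varied among injected samples, and its relation with the TPM of each tested member was computed within each injected group after the values had been seen, giving 14 relations. Nobox was lowest in the Kdm5b 2C samples with the highest share. The 3 samples at 13.2%, 15.6% and 15.8% held 93.4, 96.5 and 89.7 TPM, and the 3 at 8.27%, 9.09% and 9.39% held 135, 117 and 135 TPM. Pearson's r was -0.91 (exact permutation test, two-sided, p = 0.0389, adjusted over the 14 relations 0.544) and Spearman's rho was -0.77 (exact p = 0.103, adjusted 0.734), with n = 6. Without the 2 samples farthest from the median share, those at 15.6% and 15.8%, r was -0.90 over 4 samples. Of the 3 high shares only that of 13.2% then remained, so this value rests on 1 sample. Over the 5 samples of strip 11 r was -0.95. The relation failed the correction. In Kdm5b zygotes r for Nobox was -0.18 (permutation test, p = 0.658, adjusted 0.874, n = 10), and Hsf5 gave 0.04 in 2C samples (exact permutation test, p = 0.917, adjusted 0.917). No other relation of the 14 had a Pearson p under 0.05, and a step between 2 sets of 3 samples cannot be told apart from a slope at this number.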
